A study of Mus musculus with 23 samples.

Results

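The p53 target genes that promote apoptosis were followed in the livers of mice that received an alcohol derived from a plant glucosinolate or its vehicle. The set was named gene by gene and holds 10 genes, namely Eda2r, Fas, Tnfrsf10b, Bax, Bbc3, Pmaip1, Apaf1, Aen, Perp and Ei24. Every probe set that the platform annotation pairs with 1 of these genes alone was taken, which gave 14 of the 45037 probe sets and 9 of the 18193 genes represented on the array. Bax was paired with no probe set in the annotation used and was not analysed here. Where a gene had several probe sets, the one with the highest average signal represents it, and the 5 others are given beside it.

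All mice were males of an FVB/N line hemizygous for the human sulfotransferase genes SULT1A1 and SULT1A2, with a label age of 5 weeks, so the vehicle groups carry the transgenes too. Treated animals received 1-methoxy-3-indolylmethyl alcohol (1-MIM-OH) by mouth at 26 mg/kg, 3 times a week, and control animals received glyceryl trioctanoate, the vehicle. The 21 d groups (5 treated, 6 vehicle) were dosed 10 times and the 90 d groups (6 treated, 6 vehicle) 40 times, and livers were collected 24 h after the final dose. Each of the 23 animals gave 1 Affymetrix mouse expression array of total liver RNA.

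The transcription factor p53 is stabilised by DNA damage and switches on genes for cell cycle arrest, DNA repair and cell death. Its death genes act at several points: receptors at the cell surface pass a death signal inward, BH3-only proteins of the BCL2 family release the brake on the pores of the outer mitochondrial membrane, and APAF1 assembles released cytochrome c into the apoptosome, which starts the caspase cascade. In the liver, hepatocytes carry FAS and are sensitive to signals through it.

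The promoters of Eda2r, Aen and Ei24 are shown because Eda2r and Aen are the members that passed the test, and because Aen and Ei24 hold the decamer of the p53 consensus site, the building block that p53 dimers bind. The sequences are from RefSeq (GRCm38.p6) and run 5' to 3' on the gene's strand from 250 bases before to 50 bases after the annotated start, with a decamer match in capitals. The Eda2r window lies at chrX:97377160-97377459 on the minus strand, the Aen window at chr7:78895677-78895976 on the plus strand, and the Ei24 window at chr9:36797285-36797584 on the minus strand.
Eda2r: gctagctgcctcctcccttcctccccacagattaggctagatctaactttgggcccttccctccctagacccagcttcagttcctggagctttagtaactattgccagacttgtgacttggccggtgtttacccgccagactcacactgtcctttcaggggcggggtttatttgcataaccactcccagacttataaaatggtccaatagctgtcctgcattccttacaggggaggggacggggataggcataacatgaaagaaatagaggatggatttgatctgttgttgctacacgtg
Aen: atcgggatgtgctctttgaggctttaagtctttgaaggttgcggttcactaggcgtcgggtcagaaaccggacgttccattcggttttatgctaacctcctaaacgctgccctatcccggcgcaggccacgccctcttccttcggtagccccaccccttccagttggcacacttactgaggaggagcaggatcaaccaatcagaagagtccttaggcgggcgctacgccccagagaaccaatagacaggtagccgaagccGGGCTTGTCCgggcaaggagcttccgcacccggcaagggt
Ei24: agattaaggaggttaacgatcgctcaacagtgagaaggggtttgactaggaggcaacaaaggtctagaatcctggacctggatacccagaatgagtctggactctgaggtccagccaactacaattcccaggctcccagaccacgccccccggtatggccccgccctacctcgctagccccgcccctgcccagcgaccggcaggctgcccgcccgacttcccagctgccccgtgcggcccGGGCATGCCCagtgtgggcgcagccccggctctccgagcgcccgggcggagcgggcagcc

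Both strands were searched for the decamer, and it was found in 8.36% of all 32851 promoter windows of 300 bases and in 9.55% of the 27025 genes with a window. Of the 7 listed genes with a window, 3 held it. In Aen it began 10 bases after the start of the window shown, and in Ei24 10 bases before the start. In Bax, whose transcript was not analysed here, it lay at position −201. Aen has a further annotated start, whose window (chr7:78895808-78896107) is not shown. From that start the same decamer lies upstream, at position −121. No member window held a full site, meaning a pair of decamers 0 to 13 bases apart, which occurred in 0.0731% of all windows. The windows of Eda2r, Fas, Bbc3 and Apaf1 held no decamer, which says only that these letters are absent from these 300 bases. Among the other p53 targets described further on, 9 of the 21 genes with a window held the decamer. A match describes the sequence, not a site in use.

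All values are log2 signals, deposited with 2 decimals, and array medians lay between 5.53 and 5.61. Differences were tested with limma, and calls were made at a Benjamini-Hochberg adjusted p under 0.05 over all 45037 probe sets. The Gapdh control difference (3' probe set minus 5' probe set), a measure of shortened RNA or labelled product, was larger in treated than in vehicle livers at 21 d (1.00 ± 0.51, SD, n = 5, against 0.33 ± 0.13, n = 6, 2-sided exact permutation p = 0.0216). At 90 d the difference was 0.53 ± 0.40 against 0.50 ± 0.15 (n = 6 each, exact permutation p = 0.909). It exceeded 0.9 on 5 arrays, those of treated replicates 1, 3, 4 and 5 at 21 d and of treated replicate 6 at 90 d. Summed hepatocyte markers lay between 17.0 and 17.1 on all arrays (5 of 5 markers above the array median), and lymphocyte markers between 8.27 and 8.98, with 6 of 8 below it. None of the 37 measured markers of 7 cell types passed limma's test in any contrast. Unadjusted p in limma was under 0.05 for 2 of them at 21 d, 1 hepatocyte and 1 endothelial marker. Both were lower in treated livers, beside 8.2% of all probe sets higher and 7.58% lower. At 90 d unadjusted p was under 0.05 for 3, namely 1 hepatocyte marker, lower, and 2 cholangiocyte markers, of which 1 was higher. Of all probe sets, 6.06% were higher at that level, and the share lower is not given here. Unadjusted p was also under 0.05 for 3 markers in the difference of effects, beside 5.02% of all probe sets higher and 4.58% lower. Between the vehicle groups this was so for 1, beside 2.68% higher and 3.28% lower. Between the treated groups this was so for 6. Higher at 90 d were 3 of 4 measured cholangiocyte markers, 1 endothelial marker and 1 of the 2 stellate cell markers among the 6. The share of all probe sets at that level is not given here for this contrast, so no excess can be read from the count. In bulk liver, a change in the number of cells of a type and a change in RNA per cell cannot be told apart.

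At 21 d, 1 of the 9 measured genes rose with treatment (Aen), none fell, and 8 did not pass. Of all probe sets, 0.406% passed as higher and 0.551% as lower in this contrast. At 90 d, 2 of 9 rose (Eda2r and Aen) and none fell, against 0.331% of all probe sets higher and 0.171% lower. Over the 18193 genes, each represented in the same way, 0.577% passed as higher at 21 d and 0.500% at 90 d. The groups did not overlap, with treated animals higher, for 1 gene at 21 d (Aen), where 1.02% of all probe sets were apart in this way. At 90 d this held for 3 genes (Eda2r, Apaf1 and Aen), where the share of all probe sets was 0.648%. The median log2 difference of the 9 genes was 0.10 at 21 d, beside −0.02 over all genes, and 0.18 at 90 d, beside 0.02 over all genes. Unadjusted p values were under 0.05 for 3 genes at 21 d (Eda2r, Bbc3 and Aen) and for 5 at 90 d (Eda2r, Tnfrsf10b, Apaf1, Aen and Ei24), all higher in treated livers. Of all probe sets, 8.2% and 6.06% were higher at that level.

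**Figure D1:**
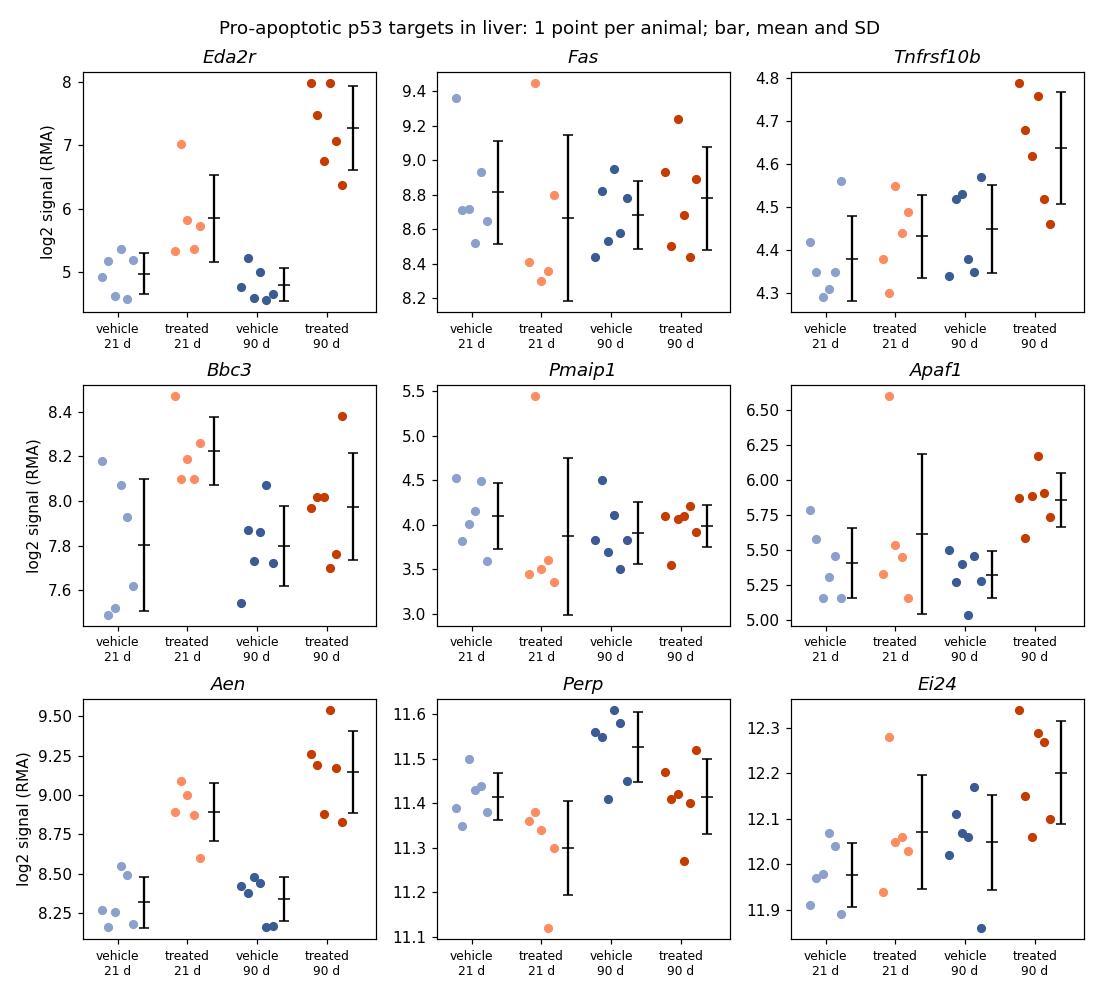
Log2 signal (vertical axis) of each of the 9 measured genes in every animal, with animals grouped by treatment and duration along the horizontal axis, 1 point per animal and a bar for the mean and SD of each group. Each panel has its own vertical span. Treated and vehicle animals separate without overlap for Aen at both times and for Eda2r and Apaf1 at 90 d, and overlap in every other pair of groups compared at the same time.

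The receptors were led by Eda2r, which encodes the receptor of the tumour necrosis factor family that binds ectodysplasin A2 and sits on the X chromosome. At 90 d its log2 signal was 6.37 in the lowest treated animal, with a median of 7.27 and a highest value of 7.98, whereas vehicle animals lay between 4.56 and 5.22 with a median of 4.72. The lowest treated animal was 1.15 above the highest vehicle animal. Eda2r rose by 2.47 ± 0.27 (SE) on the log2 scale, which is 5.53-fold with a 95% interval of 3.78 to 8.09 (limma adjusted p = 1.99e-05). The gene has 1 probe set here, and its vehicle signals at both times lay below the array medians of 5.53 to 5.61, so the fold rests on dim vehicle values.

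The 5 treated animals of 21 d had Eda2r signals of 5.33, 7.01, 5.82, 5.36 and 5.72, and the vehicle animals ran from 4.57 to 5.36 with a median of 5.05. Replicate 2 stood above the rest of its group, 3 of the 5 animals exceeded every vehicle animal, and the groups overlapped. The log2 difference was 0.87 ± 0.28, or 1.83-fold, and did not pass (95% interval of the fold 1.23 to 2.74, limma adjusted p = 0.114). Without treated replicate 2 it was 0.58 (limma adjusted p = 0.176). With each array's Gapdh difference as a covariate it was 1.53 ± 0.28 and passed (limma adjusted p = 0.0138). At 21 d, however, the covariate was tied to treatment. It was 1.02 to 1.45 on treated replicates 1, 3, 4 and 5 and 0.09 to 0.49 on vehicle arrays. Only treated replicate 2 (0.14) lay within the vehicle range, so every value with this covariate at 21 d leans on that animal. Without the 5 arrays above 0.9, treated replicate 2 is the only treated animal left at 21 d, and the value of 2.04 is that animal's own. Its limma adjusted p of 0.0131 takes the spread from the other groups and assumes that this animal varies as they do.

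Fas, the receptor for FAS ligand, did not separate the groups at either time. Treated animals at 21 d had log2 signals of 8.41, 9.45, 8.30, 8.36 and 8.80, and vehicle animals ran from 8.52 to 9.36 (median 8.715), so 3 treated animals lay below every vehicle animal and 1 above. The 90 d treated animals lay between 8.44 and 9.24 (median 8.785) and vehicle animals between 8.44 and 8.95 (median 8.68). The log2 difference was −0.15 ± 0.18 at 21 d (95% interval −0.53 to 0.22, limma adjusted p = 0.758) and 0.10 ± 0.17 at 90 d (−0.26 to 0.45, adjusted p = 0.895).

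Tnfrsf10b encodes the mouse death receptor for TRAIL, the product of Tnfsf10. Its representative probe set had a mean log2 signal of 4.48, below the array medians. At 90 d treated animals ran from 4.46 to 4.79 with a median of 4.65 and vehicle animals from 4.34 to 4.57 with a median of 4.45, and 4 of 6 treated animals exceeded every vehicle animal. The log2 difference of 0.19 ± 0.07 did not pass (limma unadjusted p = 0.00988, adjusted p = 0.283). The treated signals of 4.38, 4.30, 4.55, 4.44 and 4.49 at 21 d all lay within the vehicle range of 4.29 to 4.56, and the difference was 0.05 ± 0.07 (limma adjusted p = 0.791). The gene's other probe set, 1422344_s_at, differed by −0.01 at 21 d and 0.05 at 90 d and passed at neither time.

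Bbc3 (PUMA) and Pmaip1 (NOXA) encode BH3-only proteins, which bind and block the survival members of the BCL2 family. Treated animals of 21 d had Bbc3 signals of 8.47, 8.10, 8.19, 8.10 and 8.26, and vehicle animals ran from 7.49 to 8.18 with a median of 7.775. The treated values were close together and sat in the upper part of the vehicle range or just above it, with 3 of 5 above every vehicle animal. The log2 difference was 0.42 ± 0.13, or 1.34-fold (95% interval 1.11 to 1.61), and did not pass (limma unadjusted p = 0.0035, adjusted p = 0.103). Treated animals of 90 d lay between 7.70 and 8.38 and vehicle animals between 7.54 and 8.07, with a log2 difference of 0.18 ± 0.12 (limma adjusted p = 0.674). Bbc3 was the only member whose log2 difference was smaller at 90 d than at 21 d, by 0.25, which did not pass either (limma adjusted p = 0.660).

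Pmaip1 was dim, with a mean log2 signal of 3.97, and 1 animal set its spread at 21 d. The treated signals were 3.45, 5.44, 3.51, 3.61 and 3.36, against 3.59 to 4.52 (median 4.085) in vehicle animals, so replicate 2 lay above every vehicle animal and 3 of the other 4 lay below every one. The log2 difference was −0.22 ± 0.27 over all animals (limma adjusted p = 0.761). Without treated replicate 2 it was −0.62 ± 0.18 (limma adjusted p = 0.0442), whereas with the Gapdh covariate it was 0.45 (limma adjusted p = 0.714), so the sign at 21 d depended on these choices. At 90 d treated animals lay between 3.55 and 4.21 (median 4.08) and vehicle animals between 3.51 and 4.50 (median 3.83), with a difference of 0.08 ± 0.26 (limma adjusted p = 0.949).

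Apaf1 encodes the scaffold of the apoptosome. At 90 d its log2 signal ran from 5.59 to 6.17 in treated animals (median 5.88) and from 5.04 to 5.50 in vehicle animals (median 5.34). All 6 treated animals were above all 6 vehicle animals, by 0.09 at the closest. The log2 difference was 0.54 ± 0.17, or 1.45-fold (95% interval 1.14 to 1.85), and did not pass over all probe sets (limma unadjusted p = 0.0043, adjusted p = 0.202).

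The Apaf1 call at 90 d depended on the arrays in the fit. It passed when the shared spread left out treated replicate 2 at 21 d (limma adjusted p = 0.0158) and when only the 90 d groups were fitted (limma adjusted p = 0.0306). At 21 d that replicate had a signal of 6.60 and the other treated animals 5.33, 5.54, 5.45 and 5.16, all within the vehicle range of 5.16 to 5.79. The log2 difference at 21 d was 0.21 ± 0.18 with that animal (limma adjusted p = 0.637) and −0.04 without it. The gene's other probe set, 1450223_at, had a mean log2 signal of 3.87 and differed by −0.04 at 21 d and 0.0083 at 90 d.

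Aen, which encodes an exonuclease that takes part in cutting DNA during apoptosis, was the only member that rose at both times. Treated animals of 21 d had log2 signals of 8.89, 9.09, 9.0, 8.87 and 8.60, and vehicle animals ran from 8.16 to 8.55 with a median of 8.265. At 90 d treated animals ran from 8.83 to 9.54 with a median of 9.18 and vehicle animals from 8.16 to 8.48 with a median of 8.40. Every treated animal was above every vehicle animal of its time, by 0.05 at the closest at 21 d and by 0.35 at 90 d.

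Aen rose by 0.57 ± 0.11 on the log2 scale at 21 d, which is 1.49-fold (95% interval 1.27 to 1.75, limma adjusted p = 0.0178). At 90 d it rose by 0.80 ± 0.11, or 1.75-fold (1.5 to 2.03, limma adjusted p = 0.000301). Both calls passed with each of the 23 arrays left out in turn. Without the 5 arrays above 0.9 in the Gapdh difference, which leaves treated replicate 2 alone at 21 d with the spread taken from the other groups, the value was 0.77 and did not pass (limma adjusted p = 0.0535). The 21 d call was kept with the Gapdh covariate at 0.73 (limma adjusted p = 0.0138), with the limit given above for Eda2r.

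The 4 probe sets of Aen differed from each other. At 90 d the log2 differences of 1450506_a_at, 1437373_at and 1451186_at were 0.63 ± 0.15, 0.47 ± 0.11 and 0.24 ± 0.09, all positive as for the representative 1423957_at, but none passed (limma adjusted p = 0.0658, 0.0567 and 0.350). At 21 d the same probe sets differed by 0.06, 0.33 and −0.03, and none passed (limma adjusted p = 0.917, 0.160 and 0.926). With the average over the 4 probe sets in place of the brightest, Aen no longer passed at 21 d (0.23, limma adjusted p = 0.178) and still passed at 90 d (0.53, limma adjusted p = 0.00179).

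**Figure D2:**
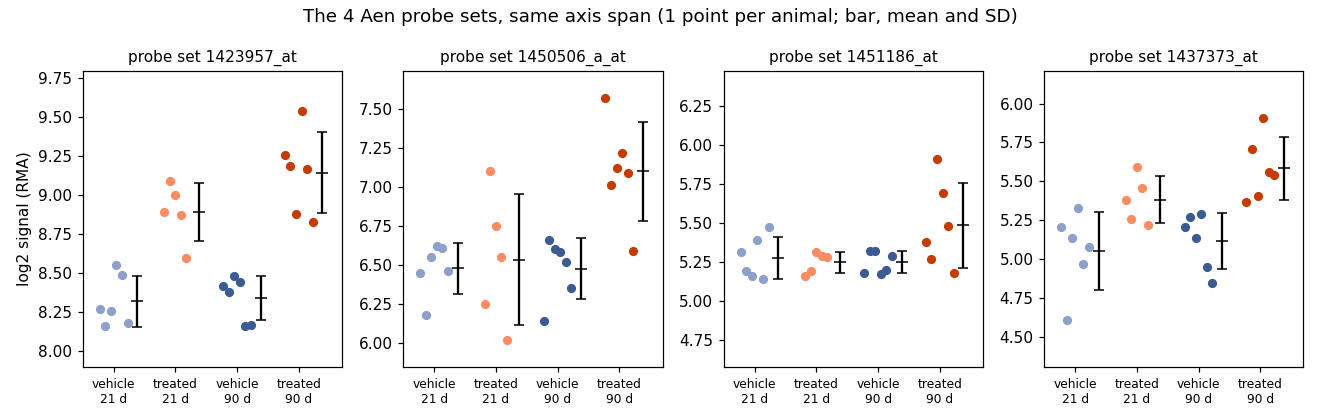
Log2 signal of the 4 Aen probe sets in every animal (vertical axes of equal span), by treatment and duration, with 1 point per animal and a bar for the mean and SD. At 90 d treated animals separate from vehicle animals for 1423957_at and 1437373_at, and at 21 d only for 1423957_at.

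Perp and Ei24 encode membrane proteins. PERP is a tetraspan protein of the plasma membrane and desmosomes, and EI24 lies in the endoplasmic reticulum. Perp was the only member with a negative difference at both times. At 21 d its treated signals were 11.36, 11.38, 11.34, 11.12 and 11.30 against 11.35 to 11.50 in vehicle animals, and at 90 d treated animals ran from 11.27 to 11.52 against 11.41 to 11.61. The groups overlapped at both times, and neither the 21 d value of −0.12 ± 0.06 (limma adjusted p = 0.349) nor the 90 d value of −0.11 ± 0.06 (limma adjusted p = 0.516) passed. At 90 d the upper end of the 95% interval was 0.0044, so a rise of the size seen for Aen lay outside it.

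The Ei24 values of all animals lay close together. At 21 d the treated signals were 11.94, 12.28, 12.05, 12.06 and 12.03 against 11.89 to 12.07 in vehicle animals, with replicate 2 alone above them. The later treated group ran from 12.06 to 12.34 (median 12.21) and its vehicle group from 11.86 to 12.17 (median 12.065), with 3 of 6 treated animals above every vehicle animal. The log2 differences were 0.10 ± 0.07 at 21 d (limma adjusted p = 0.553) and 0.15 ± 0.07 at 90 d (limma unadjusted p = 0.0289, adjusted p = 0.410).

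**Figure D3:**
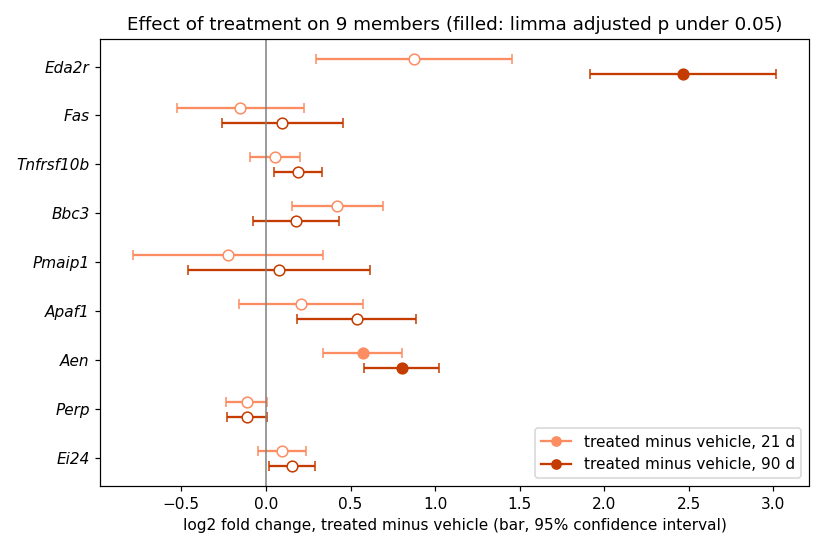
Log2 difference, treated minus vehicle (horizontal axis), of the 9 measured genes (rows) at 21 d and 90 d, with bars for the 95% interval of the fit and filled points for calls at an adjusted p under 0.05. Eda2r at 90 d (2.47) and Aen at 21 d (0.57) and 90 d (0.80) are the filled points.

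Between the times, the test of the difference of the treatment effects passed for no member and for 0% of all probe sets in limma. At an unadjusted p under 0.05 it held for 1 member, Eda2r, beside 5.02% of all probe sets higher and 4.58% lower. The Eda2r effect was larger at 90 d than at 21 d by 1.59 ± 0.39 on the log2 scale (limma unadjusted p = 0.000397, adjusted p = 0.492). Without treated replicate 2 at 21 d the difference was 1.88 ± 0.33 and passed (limma adjusted p = 0.0333), while with the Gapdh covariate it was 0.97 and did not. The Aen effect was larger at 90 d by 0.23 ± 0.16 (limma adjusted p = 0.631), which as a ratio of the folds is 1.17 with a 95% interval of 0.940 to 1.47.

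The vehicle groups of 21 d and 90 d differed for no member (0 of 9 in limma, beside 0.00666% of all probe sets, and 0 at an unadjusted p under 0.05, beside 2.68% of all probe sets higher and 3.28% lower), with log2 differences between −0.19 and 0.11. The treated groups differed for 1 member, Eda2r, beside 0.0688% of all probe sets higher at 90 d. Its treated signal was higher by 1.42 ± 0.28 at 90 d (2.68-fold, 95% interval 1.79 to 3.99, limma adjusted p = 0.0497), and 4 of 6 animals at 90 d exceeded all 5 at 21 d. That call lay at the threshold: it was kept in 4 of 23 fits that left out 1 array, with adjusted p from 0.00115 (without treated replicate 2 at 21 d, where the value was 1.71) to 0.169, and with the Gapdh covariate the value was 0.96 (limma adjusted p = 0.421). Duration, number of doses, age and any difference in hybridisation occasion cannot be told apart in either contrast between times. The treated contrasts at 1 time and across times share animals.

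Treated animals of 1 group differed in their levels. In the treated 90 d group, replicates 3 and 6 had the lowest Cdkn1a signals (9.01 and 9.15, with the others between 10.67 and 11.79). The same animals had the lowest Eda2r signals (6.75 and 6.37) and the lowest Aen signals (8.88 and 8.83). Cdkn1a, the p53 target that encodes the cell cycle inhibitor p21, rose at both times, by 2.60 ± 0.36 at 21 d (limma adjusted p = 0.00135) and 3.67 ± 0.34 at 90 d (limma adjusted p = 2.13e-06).

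As a description over 23 arrays, deviations from the group means correlated with those of Cdkn1a at Pearson's r of 0.69 for Eda2r, 0.66 for Aen, 0.56 for Ei24 and 0.48 for Apaf1, but −0.06 for Fas and −0.48 for Bbc3. For the remaining members, r with Cdkn1a was 0.33 for Tnfrsf10b, 0.27 for Pmaip1 and −0.37 for Perp. Eda2r and Aen correlated with each other at 0.60, and with Ei24, which was not called, at 0.63 and 0.61. Among pairs of members, the highest r values were 0.75 between Pmaip1 and Apaf1 and 0.70 between Fas and Pmaip1. Pmaip1 and Apaf1 each also correlated with Eda2r and with Ei24, at 0.51 to 0.53. Treated replicate 2 at 21 d was the highest of its group for 7 members, namely Eda2r, Fas, Pmaip1, Apaf1, Aen, Perp and Ei24.

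That animal also had the lowest Gapdh difference of its group (0.14), and the highest summed log2 signals of Kupffer cell markers (14.20 against 11.83 to 12.03 in the rest of its group and 12.14 to 13.75 in vehicle animals) and of neutrophil markers (11.82 against 7.07 to 7.86 and 7.02 to 9.59). At 90 d the Kupffer sums ran from 11.97 to 13.30 in treated and from 12.08 to 13.47 in vehicle animals. The neutrophil sums ran from 7.08 to 10.35 and from 6.98 to 9.50, with treated replicates 3 and 6 the highest (10.35 and 10.20). All 6 Kupffer markers lay above the array median, and 1 of the 3 measured neutrophil markers lay below it. Over 23 arrays, deviations of the Gapdh difference correlated with those of Eda2r at −0.63, Pmaip1 at −0.66, Apaf1 at −0.58, Ei24 at −0.52, Fas at −0.45 and Aen at −0.40, as values that share the arrays. The part of RNA shortening or of these cells in the members' values at 21 d was not tested further. At 90 d Eda2r and Aen passed with the Gapdh covariate as well.

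**Figure D4:**
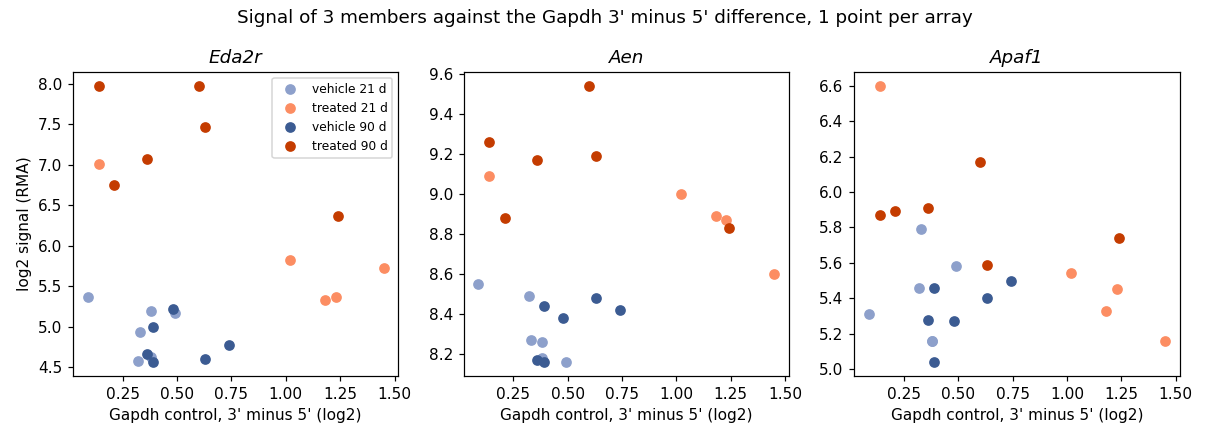
Log2 signal of Eda2r, Aen and Apaf1 (vertical axes) against the 3' minus 5' log2 difference of the Gapdh controls (horizontal axis) for each of the 23 arrays, with points coloured by group. Of the treated 21 d arrays, 4 lie at Gapdh differences above 0.9 and replicate 2 lies at 0.14 with the highest Eda2r signal of its group (7.01).

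Other genes of the pathway were counted from lists. Of 24 measured other p53 targets, 5 rose at 21 d and 8 at 90 d, and none fell, beside 0.406% and 0.331% of all probe sets higher. Their median log2 differences were 0.19 and 0.34, beside −0.02 and 0.02 over all genes. Among those that passed at 21 d, the largest after Cdkn1a were Phlda3 at 1.17 ± 0.20, an inhibitor of AKT signalling, Dglucy at 0.72 ± 0.12 and Polk, a DNA polymerase for damaged templates, at 0.56 ± 0.12 (limma adjusted p = 0.00829, 0.00826 and 0.0300). Among those that passed at 90 d, they were Phlda3 at 1.84 ± 0.19, Ddit4l, an inhibitor of mTOR signalling, at 1.15 ± 0.20, and Zmat3, which encodes an RNA-binding zinc finger protein, at 1.01 ± 0.16 (limma adjusted p = 1.18e-05, 0.00691 and 0.0030). The calls of Dglucy (0.79, limma adjusted p = 0.121) and Polk (0.58, limma adjusted p = 0.200) at 21 d were lost without the 5 arrays above 0.9, which leaves 1 treated animal. The Polk call at 21 d was kept in 16 of 23 fits that left out 1 array, and was lost with the Gapdh covariate (0.64, limma adjusted p = 0.0819) and with the average over its probe sets (0.21, limma adjusted p = 0.241).

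Of 12 measured other members of the BCL2 family, none passed limma's test at either time. Their medians were 0.03 and 0.14, beside −0.02 and 0.02 over all genes. Unadjusted p in limma was under 0.05 for 5 at 21 d, 4 higher and 1 lower, beside 8.2% and 7.58% of all probe sets, and for 1 at 90 d, higher, beside 6.06%. The lower one was Mcl1, a survival member, at −0.32 ± 0.11, named here after its value was seen. The largest differences at 21 d were those of the BH3-only genes Bmf (0.96 ± 0.33, limma adjusted p = 0.144) and Bcl2l11 (0.38 ± 0.12, limma adjusted p = 0.111). Without treated replicate 2 at 21 d, the Bmf value was 1.26 and passed (limma adjusted p = 0.0203). With that replicate as the only treated animal of 21 d, after leaving out the 5 arrays above 0.9 in the Gapdh difference, the value turned to −0.26, and with the average over its probe sets it was 0.34, neither of which passed. At 90 d the largest were Bok, a pore-forming member, at 0.33 ± 0.11 and Bcl2l11 at 0.21 ± 0.11 (limma adjusted p = 0.244 and 0.551).

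Of 11 measured ligands, receptors, adaptors and caspases of death receptor signalling, none passed at either time. Unadjusted p in limma was under 0.05 for 2 at 21 d and 1 at 90 d, all higher, beside 8.2% and 6.06% of all probe sets. Their medians were 0.04 and 0.02, beside −0.02 and 0.02 over all genes. The largest at 21 d were the adaptor Tradd (0.19 ± 0.09) and the initiator caspase gene Casp8 (0.18 ± 0.09), and at 90 d the receptor Tnfrsf1a (0.30 ± 0.12) and the ligand Tnfsf10 (0.24 ± 0.22). Of 10 measured genes of the executioner stage, Endog, a mitochondrial endonuclease, rose at both times, by 0.71 ± 0.10 at 21 d (limma adjusted p = 0.00236) and 0.69 ± 0.10 at 90 d (limma adjusted p = 0.000537). The Endog call at 21 d was lost without the 5 arrays above 0.9, which leaves 1 treated animal (0.52, limma adjusted p = 0.126), and it was kept with the Gapdh covariate (0.67, limma adjusted p = 0.0194). Casp6, an executioner caspase, fell by 0.51 ± 0.13 at 21 d (limma adjusted p = 0.0484), a call kept in 4 of 23 fits that left out 1 array. With the Gapdh covariate the Casp6 value was −0.14 (limma adjusted p = 0.783). The other 8 genes at 21 d and 9 at 90 d did not pass. Of all probe sets, 0.406% passed as higher and 0.551% as lower at 21 d, and 0.331% and 0.171% at 90 d.

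Over the 23 arrays, the genes whose log2 signals were most like that of Eda2r were Mbl2 (Pearson's r = 0.94), Phlda3 (0.94), Ddias (0.94), Ccng1 (0.92) and Tmem43 (0.91). For Aen they were Phlda3 (0.95), Cdkn1a (0.94), Zmat3 (0.94), Polk (0.94) and Slc6a8 (0.93). Phlda3 was on both lists. These correlations include the differences between the groups, so they describe which genes follow the same order of arrays.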

How the data were processed

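Total RNA from 23 mouse livers was labelled by 3' in vitro transcription and hybridised to 1 array for each animal, according to the protocols in the labels. The deposited values are log2 signals made by the authors with Partek and RMA (robust multi-array average), per the submitters' processing notes; the sources used here do not give versions. That the logarithm is base 2 was inferred from the range of 2.23 to 15.41 and from RMA. Raw scans were not used here, so signals could not be set against background. The array of 1 further treated 21 d animal was excluded by the submitters and not analysed here.

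Of 45101 probe sets, 64 controls were left out. Platform annotation paired 34945 of the 45037 others with 1 gene, 932 with several and 9160 with none, and 34741 matched RefSeq by Entrez identifier with no symbol changed. The 4 group means were fitted with limma 3.58.1 in R 4.3.3 (lmFit and eBayes, 19 residual degrees of freedom) and adjusted by Benjamini-Hochberg over 45037 probe sets. The fit was tested on simulated data. Each p-value sets a mean difference against the residual spread between arrays within groups, shared by the 4 groups and moderated across probe sets. Since the arrays come from separate animals, that spread holds differences between animals and between arrays, and the number of arrays limits the precision.

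The members and lists were chosen with earlier results of these data known. All members were named whatever their result, with up to 4 called genes of each list by size, or the 2 largest where none was called, and the 5 genes most like Eda2r and Aen. The lists were other p53 targets, other BCL2 family members, death receptor signalling, the executioner stage, and markers of 7 cell types. The alternatives were leaving out each array, a replicate block, only the groups compared, a filter on dim probe sets, another variance prior, a further quantile normalization, the Gapdh difference as a covariate or as a limit of 0.9, and other probe sets.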

Additional observations from a re-analysis of the deposited data

Results flagged for a closer look

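Of 44 sets of 5 or 6 values tested (the 9 members, Cdkn1a and the Gapdh control difference in 4 groups), 3 held an animal far from the rest by Dixon's test at the 95% level. Chance gives about 1 such set in 20. Treated replicate 2 at 21 d had a Pmaip1 signal of 5.44, with the nearest animal of its group at 3.61 and the farthest at 3.36, so the gap was 0.880 of the range. The same animal had an Apaf1 signal of 6.60, with the nearest at 5.54 and the farthest at 5.16 (0.736 of the range). Vehicle replicate 3 at 90 d had a Cdkn1a signal of 7.27, with the nearest at 6.72 and the farthest at 6.41 (0.640 of the range).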

How the results depend on the processing

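Over 2319 recomputed gene values, 2232 kept their side of the threshold, 76 no longer passed, 10 passed where they had not, and 1 lost its call with the opposite sign (the Aen probe set 1451186_at at 21 d, at −0.031, limma adjusted p = 0.926). The sign turned in 66 values in all, and apart from that of Aen they belonged to results that had not passed as reported. The Eda2r and Aen calls at 90 d held with each array left out and, for Eda2r, in 7 other settings (2.46 to 2.65). The number of members called was 1 at 21 d, 1 to 2 with 1 array left out, 2 with the Gapdh covariate and 0 with the average over a gene's probe sets. At 90 d it was 2, 2 to 3 with 1 array left out, and 1 with probe sets of a mean of at least 6, which leaves out Eda2r. For the difference of the effects it was 0, and 0 to 1 with 1 array left out. Between the treated groups it was 1, 0 to 2 with 1 array left out, and 0 with the Gapdh covariate, only the groups compared, the filter on dim probe sets, the further quantile normalization, the trend and robust prior, and without the arrays above 0.9. Between the vehicle groups it was 0 throughout.

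The labels number the animals but do not say whether the numbers pair them. Deviations of same-numbered animals correlated negatively in every case, at −0.20 to −0.14 at 21 d and −0.36 to −0.23 at 90 d. These values cannot show that the numbers carry no structure, so results with a block are given beside those without. With a replicate block, 0 members were called at 21 d (Aen 0.54, limma adjusted p = 0.184) and 2 at 90 d, and the 21 d calls of Cdkn1a, Phlda3, Dglucy, Polk, Endog and Casp6 and the 90 d calls of Polk and Ddit4l were lost. Over all probe sets, 431 passed at 21 d (133 to 2265 with 1 array left out, the highest without treated replicate 2, 123 with the Gapdh covariate, 813 with the filter and 0 with the replicate block). At 90 d 226 passed (114 to 389 with 1 array left out, 504 with the covariate, 761 without the arrays above 0.9 and 44 with the block). Without the arrays above 0.9, the Apaf1 value at 21 d is that of treated replicate 2 alone, the animal far from its group (1.19, limma adjusted p = 0.0125, with the spread taken from the other groups), and at 90 d Apaf1 passed (0.56, limma adjusted p = 0.0194). With the average over its probe sets, Apaf1 was at 0.27 at 90 d (limma adjusted p = 0.216). The cause of these changes was not tested.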
